A study of Mus musculus with 6 samples.

Results

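The genes described here encode Wnt5a, the receptors and co-receptors that read it, and the core membrane and cytoplasmic proteins of planar cell polarity. They are Ror1, Ror2, Wnt5a, Ryk, Ptk7, Vangl1, Vangl2, Celsr1, Celsr2 and Prickle1. They were chosen by name, as every probe set that the platform annotation gives a single symbol among these 10, of 18193 genes with such a probe set. Together they had 24 probe sets, of which 17, from 9 genes, were bright enough to be tested. The names were gathered with the comparison of mutant and control arrays already known, in which Ror2 stood among the genes lower in the mutants. The differences of these genes between the groups are therefore descriptions and are used to support nothing further.

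The samples were optic fissures, the ventral grooves of the optic cup, laser microdissected from C57BL/6J mouse embryos at E11.5. In 3 FGFR mutant samples (Six3Cre+;Fgfr1fx/fx;Fgfr2fx/fx) the Six3Cre transgene, driven by regulatory sequence of the eye field gene Six3, was present. The 3 control samples (Six3Cre-;Fgfr1fx/fx;Fgfr2fx/fx) carried the same floxed alleles on both chromosomes and lacked Cre, so that Cre itself and the loss of the receptors cannot be told apart. Each sample was 1 Affymetrix array, and the numbers 8711, 9216 and 9266 in the sample names each occur once in each group. The sources used here do not say if each array stands for its own embryo or pool, so the spread between arrays may be technical.

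Wnt5a is the best known ligand of the branch of Wnt signalling that works without beta-catenin. It binds Ror2 and Ror1, receptor tyrosine kinase-like proteins, and acts on cell shape, movement and polarity through Dishevelled, small GTPases and JNK. Planar cell polarity is the alignment of cells within the plane of a tissue, for which the cadherins of the Celsr family, Frizzled, Vangl and Prickle proteins gather on opposite sides of each cell. In vertebrates this machinery is known for its part in convergent extension and neural tube closure.

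The promoters of both Ror receptors and of Celsr2, the members on which the description below mainly turns, are shown so that the regions can be set beside the values. RefSeq windows from 250 bases before to 50 bases after the gene start (build GRCm38.p6) were matched for 7 of the 10 genes, with 8 windows in all. Capitals mark GGAAG or its reverse complement CTTCC, the core letters of the binding site of ETS factors, a family that includes the FGF response genes Etv4 and Etv5. The Ror2 window is chr13:53286075-53286374 on the minus strand, the Ror1 window chr4:100095541-100095840 on the plus strand, and the Celsr2 window chr3:108415530-108415829 on the minus strand.
Ror2: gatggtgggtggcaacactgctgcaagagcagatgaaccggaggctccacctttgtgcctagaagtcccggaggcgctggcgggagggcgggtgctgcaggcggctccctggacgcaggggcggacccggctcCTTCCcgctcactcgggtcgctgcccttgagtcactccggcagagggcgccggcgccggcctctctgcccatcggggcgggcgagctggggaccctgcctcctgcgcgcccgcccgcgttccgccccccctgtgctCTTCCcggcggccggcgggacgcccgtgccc
Ror1: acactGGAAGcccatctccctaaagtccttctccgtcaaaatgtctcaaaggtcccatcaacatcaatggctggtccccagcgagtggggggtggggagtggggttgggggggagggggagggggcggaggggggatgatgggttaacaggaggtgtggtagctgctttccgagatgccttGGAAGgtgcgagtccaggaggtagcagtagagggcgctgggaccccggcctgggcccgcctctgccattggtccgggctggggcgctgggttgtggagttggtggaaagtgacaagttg
Celsr2: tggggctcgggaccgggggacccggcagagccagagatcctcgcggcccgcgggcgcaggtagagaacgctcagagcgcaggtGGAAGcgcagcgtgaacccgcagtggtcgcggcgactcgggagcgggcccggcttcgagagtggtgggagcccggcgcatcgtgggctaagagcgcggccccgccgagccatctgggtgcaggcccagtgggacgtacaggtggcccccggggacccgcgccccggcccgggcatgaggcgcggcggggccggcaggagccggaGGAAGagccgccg
Each of these windows held 2 such matches, and 71.4% of all 32851 promoter windows held at least 1. The windows not shown held 0 in Ryk, 1 in Ptk7, 3 in Vangl2, and 0 and 2 in those of Prickle1. The GC box letters GGGCGG, read on both strands, occurred 5 times in the Ror2 window, 1 time in the Ror1 window and 0 times in the Celsr2 window, and 35.7% of all windows held at least 1. The TCF/LEF core letters CTTTGA, read on both strands, occurred 1 time in the Ror1 window and 0 times in those of Ror2 and Celsr2, against 16% of all windows with at least 1. The windows were rich in G and C, with 74.7% in Ror2, 62.3% in Ror1 and 76.3% in Celsr2, against a median of 52.7% over all windows. A match of letters is a description and no measure of binding.

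The arrays differed in quality. In mutant 8711 the ratio of 3 prime to 5 prime signal of the Gapdh control probe sets was 93.6, against 4.26 to 15.0 in the other arrays, and the mean correlation of this array with the others was 0.836, against 0.917 to 0.932. The Gapdh ratio averaged 35.9 ± 50.1 in the mutants and 9.34 ± 5.13 in the controls (SD, n = 3 each). The exact permutation test, two-sided, on the log2 ratios gave p = 0.7, where 3 against 3 arrays cannot go below 0.1. For the Actb control probe sets the ratio was 14.8 in mutant 8711, a smaller gap, against 6.03 to 12.1 in the other arrays. The same permutation test gave p = 0.8 for it. Of the targeted receptors, Fgfr1 (brightest probe set) read 59.9, 64.1 and 141 in the mutants and 247, 89.8 and 238 in the controls, and Fgfr2 869.9, 928 and 1316 in the mutants and 351, 314 and 474 in the controls. Where these probes lie relative to the floxed parts was not analysed here, so they check no genotype. Of the marker lists, 9 of 10 genes of neural retina progenitors, 12 of 12 of retinal pigment epithelium and 14 of 16 of periocular mesenchyme were tested, while Foxe3 and Mip of the lens, Pecam1 of the endothelium and Foxd3 of the neural crest lay under the filter level of 15.1 in every array.

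Values below are the authors' deposited linear intensities, listed in the order 8711, 9216 and 9266 within each group. Intensities of different probe sets are not on 1 scale, so the levels of the members are not compared with each other. Brightness serves only to choose the probe set of a gene and the genes named from a marker list, and a summed intensity is compared between arrays for the same probe sets. Differences are mutant minus control on the log2(value + 1.7) scale, from limma's fit across all 27022 probe sets tested. In this fit 0% of all probe sets passed an adjusted p of 0.05, and of the 17 member probe sets 0 passed, with limma adjusted p from 0.356 to 0.998. At an unadjusted p under 0.05, 689 of all probe sets were lower (2.55%) and 817 higher (3.02%) in the mutants, and among the members 3 were lower, both of Ror2 and 1 of Celsr2, and 1 of Wnt5a was higher.

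Ror2, the receptor that gave the group its name, had the lowest values in the mutants relative to the controls among the 9 tested genes by their brightest probe sets. Its brightest probe set (1423428_at) had 87.0, 89.5 and 75.4 in the mutants, against 291, 258 and 242 in the controls. The mutant arrays lay close together and every one was far below the lowest control array. The means were 84.0 ± 7.52 in the mutants and 263 ± 25.2 in the controls (SD, n = 3 each), so that the mutant mean was 31.9% of the control mean. The log2 difference was -1.63 (SE 0.23), 3.09-fold lower in the mutants, and with 1 array left out it ran from -1.69 to -1.56. Because whole dissected tissue was measured, fewer cells that express a gene and less RNA per cell cannot be told apart, here or for the genes below.

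The second Ror2 probe set (1457128_at) had 2.5, 144 and 47.6 in the mutants, against 225, 334 and 199 in the controls. The groups did not overlap, but the mutant arrays were spread widely, and mutant 8711 was almost dark. Means were 64.7 ± 72.3 in the mutants and 253 ± 71.9 in the controls (SD, n = 3 each), with a log2 difference of -2.99 (SE 1.20). Without mutant 8711 this probe set had a difference of -1.55 (SE 0.46) and the brightest one -1.66 (SE 0.23). Thus both Ror2 probe sets had nearly the same difference over the 5 arrays with the lower Gapdh ratios, and the larger value of the second rested on 1 array.

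**Figure D1:**
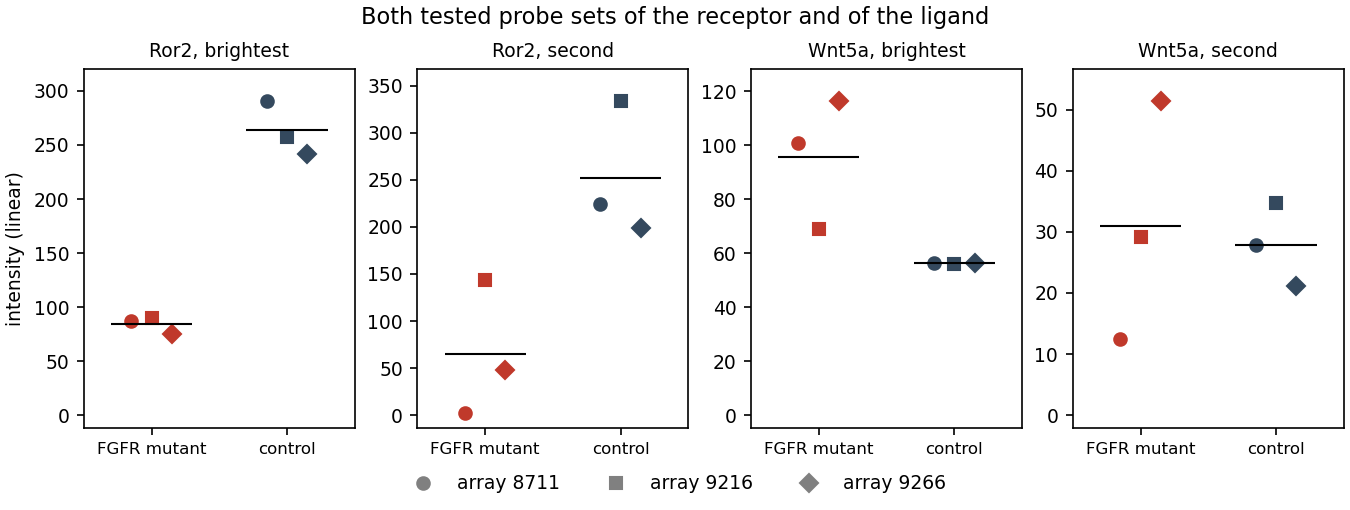
Linear intensity (vertical axis) of the tested probe sets of Ror2 and Wnt5a in 3 FGFR mutant (left) and 3 control arrays (right), with symbols for the array number and a bar at the mean of 3. Both Ror2 probe sets are lower in every mutant array, with mutant 8711 at 2.5 in the second, while only the brightest Wnt5a probe set separates the groups.

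Ror1, the closest relative of Ror2 and also a Wnt5a receptor, showed no such gap. Its only tested probe set (1429313_at) had 163, 209 and 183 in the mutants, against 178, 245 and 205 in the controls. The groups overlapped, and array 9216 was the highest of its group in both. Means were 185 ± 23.3 in the mutants and 209 ± 33.4 in the controls (SD, n = 3 each), and the log2 difference was -0.17 (SE 0.23), with a 95% confidence interval from -0.73 to 0.38. This interval does not show that Ror1 kept its level, since it reaches a difference of -0.73. The difference between the changes of Ror2 and Ror1 was not tested, because Ror2 was chosen for its own. Both other Ror1 probe sets were under the filter, with at most 20.1 in the mutants and 14.8 in the controls.

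Wnt5a, the ligand, had higher values in the mutants in its brightest probe set (1436791_at). The values were 101, 69.0 and 116 in the mutants, against 56.3, 56.1 and 56.2 in the controls. All 3 mutant arrays lay above the controls, which were almost identical, and mutant 9216 was the closest to them. Means were 95.5 ± 24.2 in the mutants and 56.2 ± 0.10 in the controls (SD, n = 3 each), a log2 difference of 0.71 (SE 0.30), from 0.54 to 0.93 over the alternatives tried. Its unadjusted limma p was 0.0466, or 0.0634 without mutant 8711.

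The second Wnt5a probe set (1448818_at) did not separate the groups. It had 12.4, 29.1 and 51.5 in the mutants, against 27.8, 34.7 and 21.1 in the controls. Mutant 8711 was the lowest and mutant 9266 the highest of all 6 arrays. Its log2 difference was -0.03 (SE 0.53), or 0.48 (SE 0.38) without mutant 8711. The other Wnt5a probe sets were under the filter, with 0.6 to 29.6 in the mutants and 2.4 to 17.5 in the controls, and overlapped.

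Ryk, an atypical kinase that binds Wnt proteins, had probe sets that went different ways. The brightest (1451789_a_at) had 232, 154 and 312 in the mutants, against 322, 186 and 308 in the controls, with a log2 difference of -0.24 (SE 0.35), or -0.65 (SE 0.28) with array weights. The second (1426388_s_at) had 130.0, 178 and 129 in the mutants, against 146, 215 and 124 in the controls, a difference of -0.13 (SE 0.30). In both groups array 9216 was the lowest for the first and the highest for the second, and the groups overlapped for both.
The third and dimmest Ryk probe set (1447400_at) had 44.0, 35.2 and 41.4 in the mutants, against 29.3, 23.7 and 15.8 in the controls. It was higher in every mutant array, with a log2 difference of 0.80 (SE 0.34), or 0.73 (SE 0.37) without mutant 8711. The Ryk probe sets thus had no common direction.

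Ptk7, a kinase-dead co-receptor of the planar polarity pathway, was too dim to test. Its 1 probe set (1452589_at) had 1.2, 1.6 and 11.0 in the mutants, against 31.9, 3.3 and 32.2 in the controls. All mutant arrays and control 9216 lay under the filter level of 15.1, and the other controls above it, so that the groups overlapped. No fold is given for it.

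The Vangl genes encode membrane proteins at the core of planar polarity, and neither had a steady difference. The brightest Vangl2 probe set (1436118_at) had 135, 217 and 147 in the mutants, against 153, 288 and 131 in the controls. The groups overlapped, and array 9216 was the highest in both. The log2 difference was -0.14 (SE 0.37), with a 95% confidence interval from -1.01 to 0.73. The second Vangl2 probe set had 36.0, 38.5 and 68.0 in the mutants, against 69.1, 44.7 and 57.4 in the controls, also overlapping, a difference of -0.29 (SE 0.36).
The third Vangl2 probe set (1455592_at) had 6.4, 38.1 and 49.9 in the mutants, against 65.5, 56.3 and 60.4 in the controls. It was lower in each mutant array, with a log2 difference of -1.29 (SE 0.70), but mutant 8711 again was nearly dark, and without it the difference was -0.46 (SE 0.28).

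Vangl1 was less bright in mutants 8711 and 9216 than in the controls and brighter in mutant 9266. Its brightest probe set (1427234_at) had 43.2, 32.8 and 78.7 in the mutants, against 66.0, 68.9 and 67.8 in the controls, a log2 difference of -0.47 (SE 0.37). The controls were almost equal, while the mutants lay on both sides of them. The second Vangl1 probe set had 31.1, 29.1 and 50.6 in the mutants, against 29.5, 52.8 and 29.0 in the controls, a difference of 0.01 (SE 0.39).

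Celsr2, an atypical cadherin of the Flamingo family that joins planar polarity complexes between neighbouring cells, was lower in every mutant array. Its brightest probe set (1435336_at) had 144, 165 and 152 in the mutants, against 236, 244 and 318 in the controls. The mutants were close together and the groups did not overlap. Means were 153 ± 10.6 in the mutants and 266 ± 45.2 in the controls (SD, n = 3 each), so that the mutant mean was 57.6% of the control mean. The log2 difference was -0.78 (SE 0.23), 1.72-fold lower, from -0.86 to -0.64 with 1 array left out, and without mutant 8711 it was -0.73 (SE 0.23). The second Celsr2 probe set (1422073_a_at), which was dimmer, had 27.1, 25.9 and 54.1 in the mutants, against 54.6, 32.3 and 51.8 in the controls. These values overlapped, and the log2 difference was -0.40 (SE 0.41).

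Celsr1, of the same family, followed the array number and not the group. It had 73.7, 22.4 and 49.3 in the mutants, against 75.0, 23.9 and 50.8 in the controls. Each mutant array nearly matched the control array with the same number, while arrays of the same group lay far apart, with 8711 high and 9216 low in both. The log2 difference was -0.05 (SE 0.57), with a 95% confidence interval from -1.41 to 1.31, and with the array number as a block its SE was 0.30. With array weights, which count mutant 8711 least and control 8711 most, the difference was -1.03 (SE 0.45). Without mutant 8711 it was -0.42 (SE 0.53).

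Prickle1, a cytoplasmic partner of the Vangl proteins, overlapped between the groups. Its brightest probe set (1452249_at) had 32.5, 34.3 and 65.0 in the mutants, against 50.6, 39.6 and 60.9 in the controls, a log2 difference of -0.24 (SE 0.38). Mutant 9266 was the highest of all 6 arrays. Both other Prickle1 probe sets were under the filter, with 2.0 to 17.2 in the mutants and 1.4 to 17.4 in the controls.

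**Figure D2:**
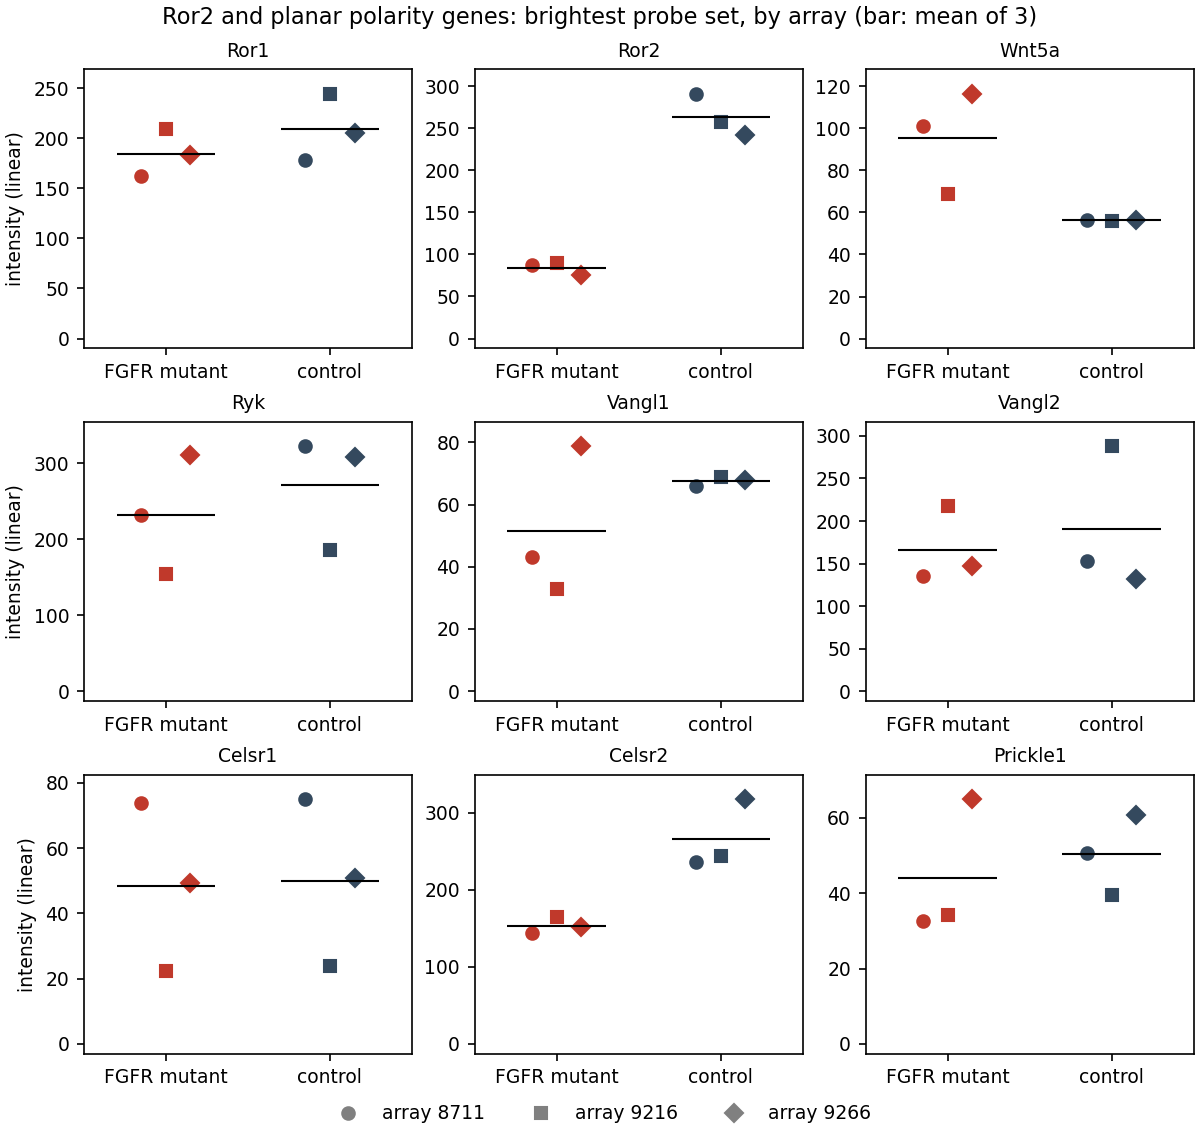
Linear intensity (vertical axis) of the brightest probe set of each of the 9 tested genes in FGFR mutant (left) and control arrays (right), with symbols for the array number and a bar at the mean of 3. Ror2 and Celsr2 are lower and Wnt5a higher in all 3 mutant arrays, and Celsr1 repeats the same order of array numbers in both groups.

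Over the members as a group, 8 of the 9 tested genes had lower and 1 had higher values in the mutants by their brightest probe set, and the median of their log2 differences was -0.24. Over all 12282 genes tested 46.4% were lower, with a median of 0.03. By probe set 14 of 17 members were lower, against 54.5% of all probe sets. The groups did not overlap for 4 lower member probe sets, against 6.39% of all probe sets, and for 2 higher ones, against 7.08%. The 4 lower ones were both of Ror2, the brightest of Celsr2 and the third of Vangl2, and the 2 higher ones were the brightest of Wnt5a and the third of Ryk. Since the genes were chosen with this comparison known, nothing is read from these shares. Without mutant 8711 the same counts were 4 lower, against 11.0% of all probe sets, and 2 higher, against 14.3%. At an unadjusted p under 0.05 there were then 3 lower, against 3.73%, and 0 higher, against 4.95%. Each tested member probe set had group means of at least 22.9, above the filter level of 15.1, so none passed through 1 group alone.

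Probe sets of 1 gene did not always go together. Of 6 genes with more than 1 tested probe set, 3 (Ror2, Vangl2 and Celsr2) had the same sign in all of them, and 3 (Wnt5a, Ryk and Vangl1) did not. Mutant 8711 was the lowest mutant array for 8 of the 17 probe sets and mutant 9266 the highest for 9. Directions of small differences depended on the scaling: centring each array on its median moved the median of all probe sets by 0.11, and under it Celsr1 had 0.06, in the other direction. Relative to that shift Ror2, at -1.52 under it, stayed far from the median.

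**Figure D3:**
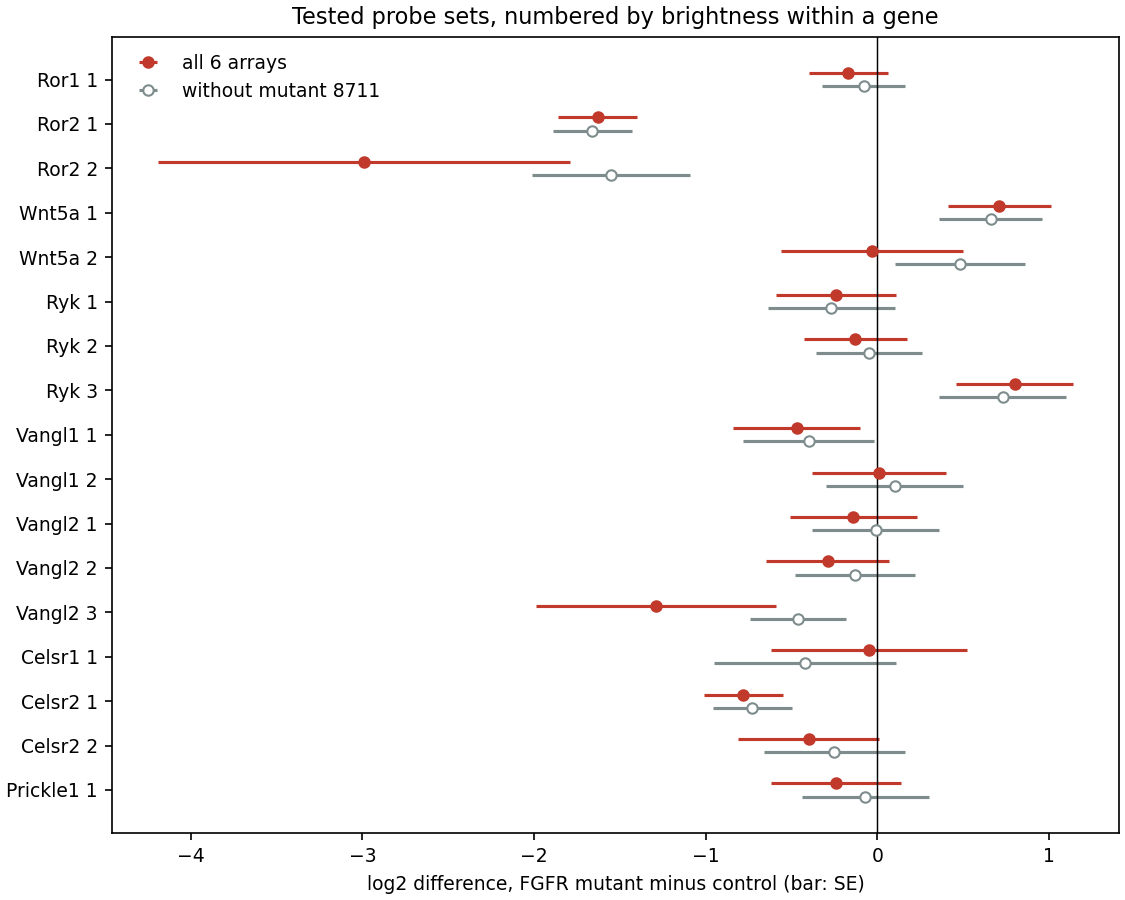
Log2 difference of FGFR mutant minus control (horizontal axis, bars show the SE) for the 17 tested probe sets, numbered by brightness within each gene, over all 6 arrays (filled) and without mutant 8711 (open). The second Ror2 probe set moves to -1.55 and the third Vangl2 probe set to -0.46 without that array, while the brightest Ror2 and Celsr2 probe sets stay at -1.66 and -0.73.

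The rest of the pathway, with 8 target genes of the beta-catenin branch, was read from lists of 55 genes, of which 42 were tested. Of these 24 were higher and 18 lower in the mutants. The median of their log2 differences was 0.04, and 0 passed adjustment in limma. At an unadjusted p under 0.05, 1 was higher and 4 were lower, where 4.40% of all genes were higher and 2.52% lower. Values did not overlap between the groups for 5 higher genes, against 9.44% of all genes, and for 4 lower genes, against 5.43%. The 5 were Fzd6, Csnk1d, Daam2, Mapk8 and Znrf3, and the 4 were Gpc4, Csnk1e, Lgr5 and Nkd1. Of these, Znrf3, Lgr5 and Nkd1 came from the target genes of the beta-catenin branch. Csnk1d, with a difference of 0.19, was named after its values were seen, and its other tested probe sets had -0.36, -0.28, -2.21 and 0.22.

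Among ligands related to Wnt5a, both tested genes overlapped between the groups. Wnt5b had 282, 168 and 213 in the mutants, against 165, 133 and 176 in the controls, a log2 difference of 0.46 (SE 0.27), and a second Wnt5b probe set had -0.07. Wnt11 had a difference of 0.13 (SE 0.37). Of 4 Frizzled receptors used in planar polarity, 2 were higher and 2 lower, and Fzd6 lay above the controls in every mutant array, with 954, 716 and 882, against 274, 388 and 296 in the controls. Its means were 851 ± 122 in the mutants and 319 ± 60.3 in the controls (SD, n = 3 each), a log2 difference of 1.42 (SE 0.22) with a limma adjusted p of 0.356. Fzd3 and Fzd7 had differences of -0.46 (SE 0.35) and 0.36 (SE 0.26), with overlapping groups, and the other Fzd3 probe sets ran from -0.94 to -0.23.

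Of other core genes, 2 were higher and 2 lower, all overlapping. Prickle2, a relative of Prickle1, had a log2 difference of 0.60 (SE 0.31). Dvl1, a Dishevelled gene that relays Frizzled signals, had -0.21 (SE 0.23), and -1.0 (SE 0.52) in its second probe set. Ankrd6, the vertebrate Diversin, had -0.46 (SE 0.36).

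Of 8 tested partners of the core proteins, 4 were higher and 4 lower, and Gpc4 and Csnk1e were lower in every mutant array. Gpc4, a glypican that binds Wnt ligands at the cell surface, had 499.8, 282 and 232 in the mutants, against 579.6, 554 and 745 in the controls. Its log2 difference was -0.95 (SE 0.32), and a second Gpc4 probe set had -1.24. Csnk1e, a casein kinase that acts on Dishevelled and, with Csnk1d, on Vangl2, had 104, 265 and 221 in the mutants, against 436, 284 and 349 in the controls, a difference of -0.93 (SE 0.39). Scrib, a scaffold that binds Vangl2, had -0.85 (SE 0.52) with overlapping groups.

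The effectors showed smaller differences. Of 14 tested, 8 were higher and 6 lower, with a median log2 difference of 0.04. Daam2, a formin activated by Dishevelled, had 0.58 (SE 0.33) at low intensity and Mapk8, which encodes JNK1, 0.27 (SE 0.21), both higher in every mutant array. Other Mapk8 probe sets had -0.78, 0.14 and -0.09. Rac1, a small GTPase of the actin cytoskeleton, had -0.31 (SE 0.20). Of 5 Fat and Dachsous genes, 3 were higher and 2 lower, and Fat1, the one with the smallest p, had 0.32 (SE 0.16).

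Of 5 tested target genes of the beta-catenin branch, 3 were higher and 2 lower. Lgr5, a receptor for R-spondins, had 13.4, 75.7 and 79.3 in the mutants, against 137, 175 and 133 in the controls, a log2 difference of -1.71 (SE 0.66). Nkd1, a feedback inhibitor that binds Dishevelled, had 31.5, 89.8 and 113 in the mutants, against 185, 139 and 153 in the controls, a difference of -1.18 (SE 0.48), while its other probe sets ran from -0.84 to 0.28. Both were lower in every mutant array, and both were lowest in mutant 8711. Znrf3, a ubiquitin ligase that removes Frizzled receptors, had 0.56 (SE 0.25) and was higher in every mutant array.

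**Figure D4:**
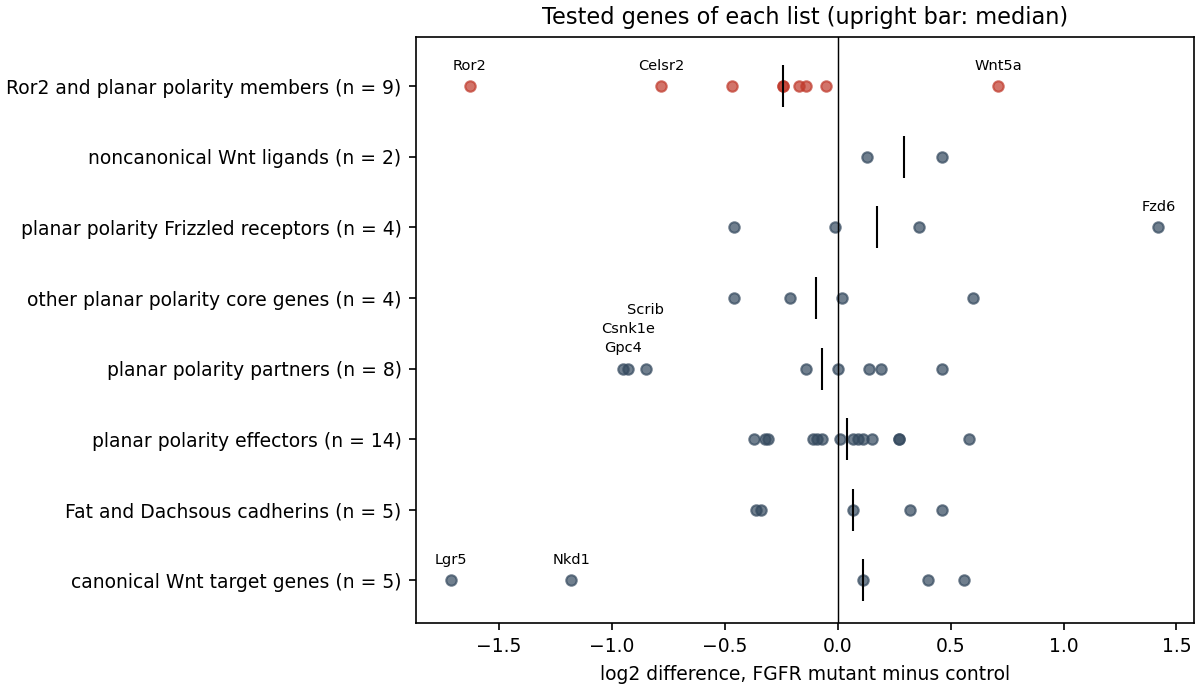
Log2 difference of FGFR mutant minus control (horizontal axis) for every tested gene of the member group and of 7 pathway lists, by brightest probe set, with an upright bar at each median. Ror2 is the lowest tested member at -1.63 and Fzd6 the highest gene of the lists at 1.42, and most effectors lie near 0.

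Of the marker genes of the tissues in the dissection, 0 passed adjustment in limma, and their values are given as a description. The mean of 9 neural retina progenitor markers, relative to the control mean on the log2 scale, was -1.18, -1.18 and -0.92 in mutants 8711, 9216 and 9266, against -0.22 to 0.17 in the controls. Of the 9 genes, 6 were lower without overlap between the groups, against 5.43% of all genes, and 6 had an unadjusted p under 0.05, against 2.52%. Lhx2, named after its values were seen, was nearly equal, with means of 858 in the mutants and 855.6 in the controls. The list's summed intensity was 3770 to 4787 in the mutants and 7242 to 9433 in the controls, and the brightest, Sfrp2 and Sox2, had log2 differences of -1.36 and -0.99. The mean of 12 pigment epithelium markers was 0.67, 0.79 and 1.47 in the mutants, against -0.16 to 0.08 in the controls. Each of the 12 had a higher value in the mutants, 10 without overlap, against 9.44% of all genes, and 9 with an unadjusted p under 0.05, against 4.40%. Their summed intensity was 24160 to 39110 in the mutants and 14930 to 17220 in the controls, and the brightest, Dct and Pmel, had differences of 1.09 and 0.12. These moved with the lower Ror2 and Celsr2 and with the higher Wnt5a values, and their part in those differences was not tested.

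Periocular mesenchyme lies next to the fissure. Its list had a marker mean of 0.51, 0.86 and 0.97 in the mutants, against -0.67 to 0.41 in the controls. Of 14 such markers 13 had a higher value in the mutants, where 6578 of all 12282 genes did. Of the 14, 4 were higher without overlap, against 9.44% of all genes, and 3 had an unadjusted p under 0.05, against 4.40%. Their summed intensity was 3423 to 4327 in the mutants and 1840 to 2991 in the controls. The brightest, Col3a1 and Lum, had log2 differences of 0.57 and 0.96. Control 9216 was the lowest array of this list, at -0.67. Macrophage markers had 0.26 to 0.52 in the mutants, against -0.49 to 0.26 in the controls, with 8 of 11 higher and Csf1r and C1qb at 0.49 and 0.85. The list of the optic stalk and ventral optic cup had a median of -0.53 (Aldh1a3 -0.71, Vax2 -0.35), with 4 of 6 genes lower and 2 higher. The other Aldh1a3 probe sets had -1.84 and -1.63. The endothelium had -0.11 (Kdr -0.95, Cldn5 -0.32), with 4 of 7 lower and 3 higher. The lens had -0.96 (Cryba1 -0.28, Cryaa -1.73), with 5 of 5 lower. Its marker mean was -1.28, -1.73 and 0.30 in the mutants, against -0.24 to 0.38 in the controls, so the groups overlapped. Neural crest and melanoblasts had -0.03 (Ednrb 0.09, Kit -0.34), with 3 of 4 lower and 1 higher. Over all genes 46.4% were lower. The part of all these cells in the values of the Ror2 group was not tested.

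**Figure D5:**
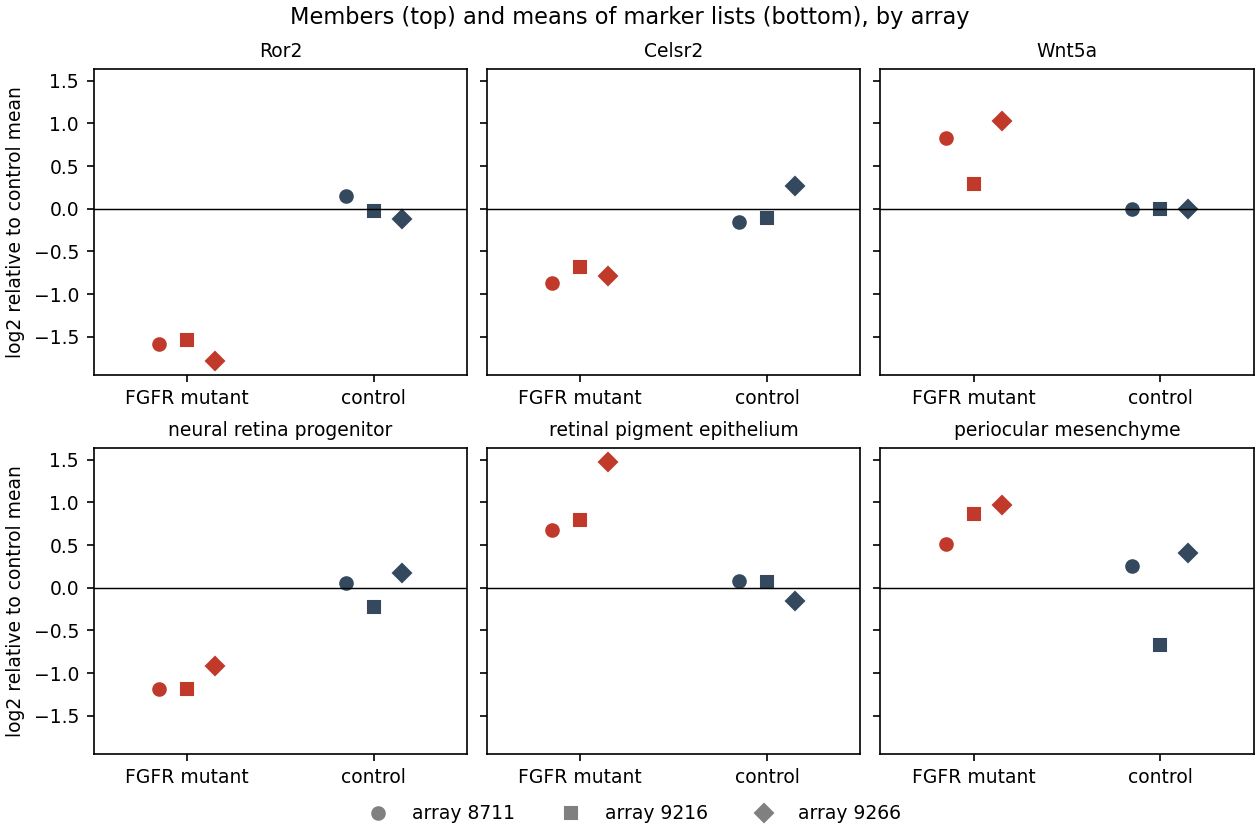
Log2 value relative to the control mean (vertical axis) for Ror2, Celsr2 and Wnt5a (top) and for the means of 3 marker lists (bottom) in FGFR mutant (left) and control arrays (right), with symbols for the array number. Ror2, Celsr2 and the neural retina markers are lower in all 3 mutant arrays, Wnt5a and the pigment epithelium markers are higher, and control 9216 is low for the mesenchyme markers.

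Genes whose values over the 6 arrays were most like those of the brightest Ror2 probe set were named by Pearson's r as a description. The 6 points fall into the 2 groups and share the arrays, so r contains the difference between the groups. The 5 genes were Lingo1 (0.992), a co-receptor of the Nogo receptor, Sorbs2 (0.979), an adaptor of the actin cytoskeleton, Mettl7a2 (0.977), Pimreg (0.973), a mitotic regulator, and Nrarp (0.971), a target and inhibitor of Notch signalling. Sorbs2 had 106, 103 and 91.8 in the mutants, against 242, 243 and 288 in the controls, a log2 difference of -1.35 (SE 0.22). Nrarp had 90.7, 128 and 111 in the mutants, against 276, 247 and 244 in the controls, a difference of -1.22 (SE 0.23). The others had -0.60, -1.79 and -1.02 for Lingo1, Mettl7a2 and Pimreg, and the first was dim, at 18.9 to 20.7 in the mutants and 30.6 to 32.2 in the controls.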

How the data were processed

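Expression was measured on 6 Affymetrix arrays, 3 FGFR mutant and 3 control, grouped by the titles in the labels. Per the submitters' processing notes the authors used MAS5, whose version and settings were not found in the labels. The authors deposited 1 linear intensity per probe set and array. Each array had a trimmed mean (2% at each end) of 150, a common scaling, and no further scaling was applied. No detection calls were used. Of 45101 probe sets, 64 were controls, and of the other 45037, 34945 had 1 gene symbol, 932 several and 9160 none in the platform annotation. All 24 member probe sets matched the reference gene table.

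Values were put on the log2(value + 1.7) scale, where 1.7 is the 10th percentile of all of them, and probe sets with a mean log2 value under the 40th percentile (4.07, a linear 15.1) were left out, leaving 27022 for 12282 genes. Fold changes on this scale understate those of dim genes. Groups were compared with limma 3.58.1 (lmFit, eBayes with trend and robust; statmod 1.5.0) in R 4.3.3, with Benjamini-Hochberg adjustment over all probe sets and a threshold of 0.05. For each gene the probe set highest in mean log2 value was taken. The fit was tried on simulated data. The number of arrays limits the precision. The members and lists were chosen with earlier results of these data known. Genes named were all members, up to 3 of each pathway list with the smallest p, the brightest Fgfr1 and Fgfr2 probe sets, the 2 brightest of each marker list, and the 5 genes most like Ror2. Dim markers were named after their values were seen. Listed genes without a single-symbol probe set were not analysed here. Alternatives were other added values, normalizations, filters, variance models, array weights, a threshold of 0.10, the array number as a block, and leaving out arrays. Leaving out mutant 8711 for every member probe set was chosen after seeing the data. Figures used Python 3.11.15 and matplotlib 3.10.9.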

Additional observations from a re-analysis of the deposited data

How the results depend on the processing

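The Ror2 difference kept its direction under all 16 alternatives, from -1.69 to -1.48, with limma adjusted p from 0.0221 to 0.999, and passed the threshold only with array weights (-1.69, adjusted p = 0.0221). That setting gave mutant 8711 a weight of 0.151 and control 8711 one of 5.98, and called 184 probe sets in all, of which 1 was a member. Without mutant 8711, and without both arrays numbered 8711, 1 probe set passed, that of Xist, which was lower in the mutants. The sex of the embryos was not analysed here. With 1 array left out the count thus ran from 0 to 1, with 0 members. Under the other alternatives 0 passed, also at an adjusted p of 0.10. By their brightest probe sets, Celsr2 was lower and Wnt5a higher, and Vangl1 and Prickle1 lower, under every alternative that tested them. Prickle1 came as near to no difference as -0.05. The second probe sets of Wnt5a and Vangl1 had -0.03 and 0.01 over all 6 arrays. Small differences turned sign: with array weights Ror1 had 0.08 and Vangl2 0.27, and Celsr1 had 0.06 with median centring and 0.04 with quantile normalization. With 1 array left out Celsr1 ran from -0.49 to 0.40, Ryk from -0.49 to 0.02 and Vangl2 from -0.36 to 0.20. Array weights moved Celsr1 to -1.03 (limma adjusted p = 0.291) and Ryk to -0.65 (0.284), from -0.05 and -0.24. This setting weighted control 8711 most among the controls (5.98) and 9216 most among the mutants (1.59). The values of these arrays were 75.0 and 22.4 for Celsr1, and 322 and 154 for Ryk. Why the arrays drew these weights was not tested. The median of the members ran from -0.60 to -0.08 over its 17 alternatives, and from -0.48 to -0.13 with arrays left out. Deviations from the group means had correlations between arrays of the same number of 0.049 for 8711, 0.481 for 9216 and -0.113 for 9266. By these deviations the arrays numbered 9216 were each other's best match in the other group. Those numbered 8711 and 9266 were not. This cannot decide if the samples were paired, because every mutant deviation includes mutant 8711, whose Gapdh ratio was 93.6. With the array number as a replicate block 0 probe sets passed, and Ror2 had -1.63 (SE 0.22, limma adjusted p = 0.765). Signal under the filter level limits Ptk7 and the other 6 untested probe sets.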
